A study of Mus musculus with 12 samples.

Results

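The 10 genes described here encode proteins of neutrophil granules or, for S100a8 and S100a9, proteins abundant in the neutrophil cytoplasm. They were taken as a named set from the 49585 Ensembl genes counted in each library: Mpo, Elane, Prtn3, Ctsg, Ngp, Camp, Ltf, Lcn2, S100a8 and S100a9. Their identifiers were matched to mouse symbols, and each was measured in 4 populations of stromal cells that had been sorted as negative for CD45, the surface protein carried by white blood cells. The Alcam+Sca-1- gate was split into Itga8+ MSCs and Itga8- Alcam+ BLCs, the Alcam-Sca-1+ gate gave the Sca-1+ MSCs, and the last population was the CD51+CD140a+ MSCs. Each was represented by 3 libraries made from 2000 cells. All came from wild-type male C57BL/6 mice aged 8 to 10 weeks at steady state, and all were gated as CD45-Ter119-CD31-. Cells of the 3 Alcam and Sca-1 gates were released by collagenase from bone fragments after the marrow had been flushed out, and CD51+CD140a+ MSCs came from the flushed marrow, digested with Accumax, another enzyme mix, so that population and tissue preparation cannot be told apart in comparisons with CD51+CD140a+ MSCs. The sources used here do not say whether the libraries of a population came from separate mice, and p-values measure the spread between these libraries only.

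Neutrophils are made in the bone marrow through a series of stages, and their granule proteins are made in waves. Primary (azurophil) granules are filled first, at the promyelocyte stage, and secondary (specific) granules later, at the myelocyte stage. The transcripts of most granule proteins decline again as the cells mature. The calcium-binding proteins S100a8 and S100a9, which form calprotectin, are abundant in the cytoplasm of the later stages. The transcription factors PU.1 (gene Spi1) and the C/EBP family are known regulators of granule genes.

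Sequences upstream of 4 members are shown because they place the binding letters of those factors beside genes from both granule waves. They are RefSeq promoters (GRCm38.p6), printed 5' to 3' on the strand of the gene and ending where the gene begins in GENCODE M21. Capitals mark GAGGAA, the core letters of a PU.1 site, or TTGCNNAA, the letters of a C/EBP site, on either strand. The windows are chr11:87793534-87793580 (plus strand) for Mpo, chr10:79886062-79886246 (plus strand) for Elane, chr9:110419558-110419746 (plus strand) for Ngp and chr9:111019042-111019270 (plus strand) for Ltf.
Mpo: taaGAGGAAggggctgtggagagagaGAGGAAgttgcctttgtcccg
Elane: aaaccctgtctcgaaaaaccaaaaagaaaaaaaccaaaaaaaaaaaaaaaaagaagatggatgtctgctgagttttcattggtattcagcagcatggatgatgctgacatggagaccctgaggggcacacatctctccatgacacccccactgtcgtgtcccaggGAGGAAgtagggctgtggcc
Ngp: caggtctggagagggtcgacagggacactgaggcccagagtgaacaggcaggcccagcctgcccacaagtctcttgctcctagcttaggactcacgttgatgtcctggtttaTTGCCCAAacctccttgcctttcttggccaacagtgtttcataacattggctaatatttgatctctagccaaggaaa
Ltf: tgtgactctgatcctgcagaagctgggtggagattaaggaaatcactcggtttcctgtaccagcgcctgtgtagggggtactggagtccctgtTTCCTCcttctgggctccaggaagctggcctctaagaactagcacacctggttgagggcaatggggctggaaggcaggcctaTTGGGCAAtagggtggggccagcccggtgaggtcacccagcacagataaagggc

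Within the 250 bases before the RefSeq start, GAGGAA occurred in 7 of the 10 members, among them all 4 primary granule genes, and in 23.3% of 32851 mouse promoters. TTGCNNAA occurred in 4 of the 10, Ngp, Ltf, Lcn2 and S100a9, and in 9.6% of the same promoters. The letters were chosen with the members' sequences in view, and a match is a description of these windows and not a site.

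Library totals lay between 17580677 and 31332475 counts, and the members had between 165 and 133357 counts in a library, so none of their values was near the floor of 3 counts (0.0820 to 0.180 CPM, covering counting error only). CPM are counts scaled to library size with TMM, which lines up the bulk of the genes between libraries. Of the sorting genes, mean Itga8 was 102.5 CPM in Itga8+ MSCs, 1.74 CPM in Itga8- Alcam+ BLCs, 2.28 CPM in Sca-1+ MSCs and 64.4 CPM in CD51+CD140a+ MSCs. Mean Ly6a, which encodes Sca-1, was 635.6 CPM in Sca-1+ MSCs and at most 27.5 CPM elsewhere. Mean Alcam was low throughout, at 3.01 and 4.92 CPM in Itga8+ MSCs and Itga8- Alcam+ BLCs and at most 0.139 CPM in the other 2 populations. Mean Pdgfra (CD140a) was 767.5 CPM in CD51+CD140a+ MSCs and 874.4 CPM in Sca-1+ MSCs, and mean Itgav (CD51) was 164.2 and 134.0 CPM. The libraries of the Alcam+ populations differed among themselves in the length of the genes they counted. The median exon length over counts was 3950, 3281 and 4678 bases in Itga8+ replicates 1 to 3 and 3976, 5896 and 3788 bases in Itga8- Alcam+ replicates 1 to 3, against 4380 to 4694 bases in the other 6 libraries. Values without Itga8+ replicate 2 and Itga8- Alcam+ replicate 3, the shortest of their populations, are given below.

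Mpo encodes myeloperoxidase, the enzyme that makes hypochlorous acid, and lies on chr11:87793581-87804413 (plus strand). In replicates 1 to 3 it stood at 3919, 3052 and 1491 CPM in Itga8+ MSCs and at 4153, 2360 and 1319 CPM in Itga8- Alcam+ BLCs. It stood at 906.5, 604.1 and 676.1 CPM in Sca-1+ MSCs and at 763.5, 1409 and 869.5 CPM in CD51+CD140a+ MSCs. Each Alcam+ library was thus above each Sca-1+ library, while Itga8- Alcam+ replicate 3 lay within the range of CD51+CD140a+ MSCs. Between 0% and 14.95% of the exon length of the members was overlapped by a gene on the other strand, with the highest share in Mpo (Gm11505), and the sources used here do not state whether counting used strand.

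Elane encodes neutrophil elastase and lies on chr10:79886247-79888215 (plus strand). Its levels were 674.7, 1486 and 327.3 CPM in Itga8+ MSCs and 980.1, 501.2 and 743.3 CPM in Itga8- Alcam+ BLCs, against 107.0, 74.7 and 98.7 CPM in Sca-1+ MSCs and 61.2, 155.6 and 96.1 CPM in CD51+CD140a+ MSCs. No library of the Alcam+ populations overlapped one of the other 2. Prtn3 encodes proteinase 3, a related serine protease, on chr10:79874476-79883174 (plus strand), near Elane. It was at 159.5, 410.9 and 74.7 CPM in Itga8+ MSCs, 209.1, 138.8 and 229.2 CPM in Itga8- Alcam+ BLCs, 29.7, 20.9 and 24.7 CPM in Sca-1+ MSCs and 30.5, 44.5 and 34.3 CPM in CD51+CD140a+ MSCs. Elane and Prtn3 moved together between libraries, and the ratio of Elane to Prtn3 lay between 2.01 and 4.69.

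Ctsg encodes cathepsin G, the last of the primary granule proteases, and lies on chr14:56099881-56102574 (minus strand). It was at 41.3, 478.4 and 36.9 CPM in Itga8+ MSCs, 49.0, 75.6 and 93.7 CPM in Itga8- Alcam+ BLCs, 25.8, 11.6 and 17.4 CPM in Sca-1+ MSCs and 17.6, 39.6 and 17.9 CPM in CD51+CD140a+ MSCs. Its mean in Itga8+ MSCs, 185.5 ± 253.6 CPM (SD, n = 3), was set by replicate 2, and the other 2 libraries lay close to the highest CD51+CD140a+ library.

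Ngp encodes neutrophilic granule protein, a cystatin-like protein, and lies on chr9:110419747-110423012 (plus strand). It stood at 1190, 6926 and 469.7 CPM in Itga8+ MSCs, at 1721, 1596 and 1549 CPM in Itga8- Alcam+ BLCs, at 673.9, 166.2 and 504.0 CPM in Sca-1+ MSCs and at 146.0, 80.5 and 49.6 CPM in CD51+CD140a+ MSCs. Its libraries agreed within 1.11 times in Itga8- Alcam+ BLCs and differed 14.8 times in Itga8+ MSCs. Per length, Ngp was the fifth most abundant of all genes in Itga8+ replicate 2, at 14073 TPM (a unit corrected for exon length), and in CD51+CD140a+ MSCs it reached at most 518.8 TPM.

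Camp, which encodes the antimicrobial peptide precursor cathelicidin, lies on chr9:109847379-109849617 (minus strand). It was at 205.4, 1723 and 86.4 CPM in Itga8+ MSCs, 363.4, 283.0 and 365.7 CPM in Itga8- Alcam+ BLCs, 91.9, 24.7 and 60.8 CPM in Sca-1+ MSCs and 14.6, 20.4 and 8.67 CPM in CD51+CD140a+ MSCs. The order of the populations was that of Ngp, and the ratio of Camp to Ngp varied 2.53 times over the 12 libraries.

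Ltf encodes the iron-binding protein lactoferrin and lies on chr9:111019271-111042767 (plus strand). It was at 604.6, 966.2 and 264.6 CPM in Itga8+ MSCs, 726.3, 1104 and 417.5 CPM in Itga8- Alcam+ BLCs, 328.2, 69.1 and 238.4 CPM in Sca-1+ MSCs and 116.6, 8.83 and 46.0 CPM in CD51+CD140a+ MSCs. Sca-1+ replicate 1 lay above Itga8+ replicate 3, and the 3 CD51+CD140a+ libraries spread over 13.2 times. Lcn2 encodes lipocalin 2, which captures bacterial iron carriers, on chr2:32384633-32388252 (minus strand). It was at 103.3, 316.9 and 40.6 CPM in Itga8+ MSCs, 220.7, 237.0 and 317.9 CPM in Itga8- Alcam+ BLCs, 38.1, 8.39 and 19.0 CPM in Sca-1+ MSCs and 12.5, 4.73 and 5.93 CPM in CD51+CD140a+ MSCs. No library of either Alcam+ population overlapped the other 2 populations.

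S100a8 and S100a9 are neighbours on chromosome 3, at chr3:90668978-90670035 (plus strand) and chr3:90692632-90695721 (minus strand). S100a8 was at 143.8, 1954 and 81.9 CPM in Itga8+ MSCs, 232.1, 320.1 and 556.5 CPM in Itga8- Alcam+ BLCs, 71.7, 25.6 and 64.4 CPM in Sca-1+ MSCs and 22.7, 28.6 and 8.47 CPM in CD51+CD140a+ MSCs. S100a9 was at 184.0, 2345 and 120.4 CPM in Itga8+ MSCs, 315.0, 437.4 and 773.3 CPM in Itga8- Alcam+ BLCs, 113.6, 36.0 and 93.7 CPM in Sca-1+ MSCs and 29.7, 33.5 and 13.2 CPM in CD51+CD140a+ MSCs. The ratio of S100a9 to S100a8 was the steadiest of those computed, between 1.17 and 1.59 in all 12 libraries, while S100a8 itself varied 23.9 times among the Itga8+ libraries.

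**Figure D1:**
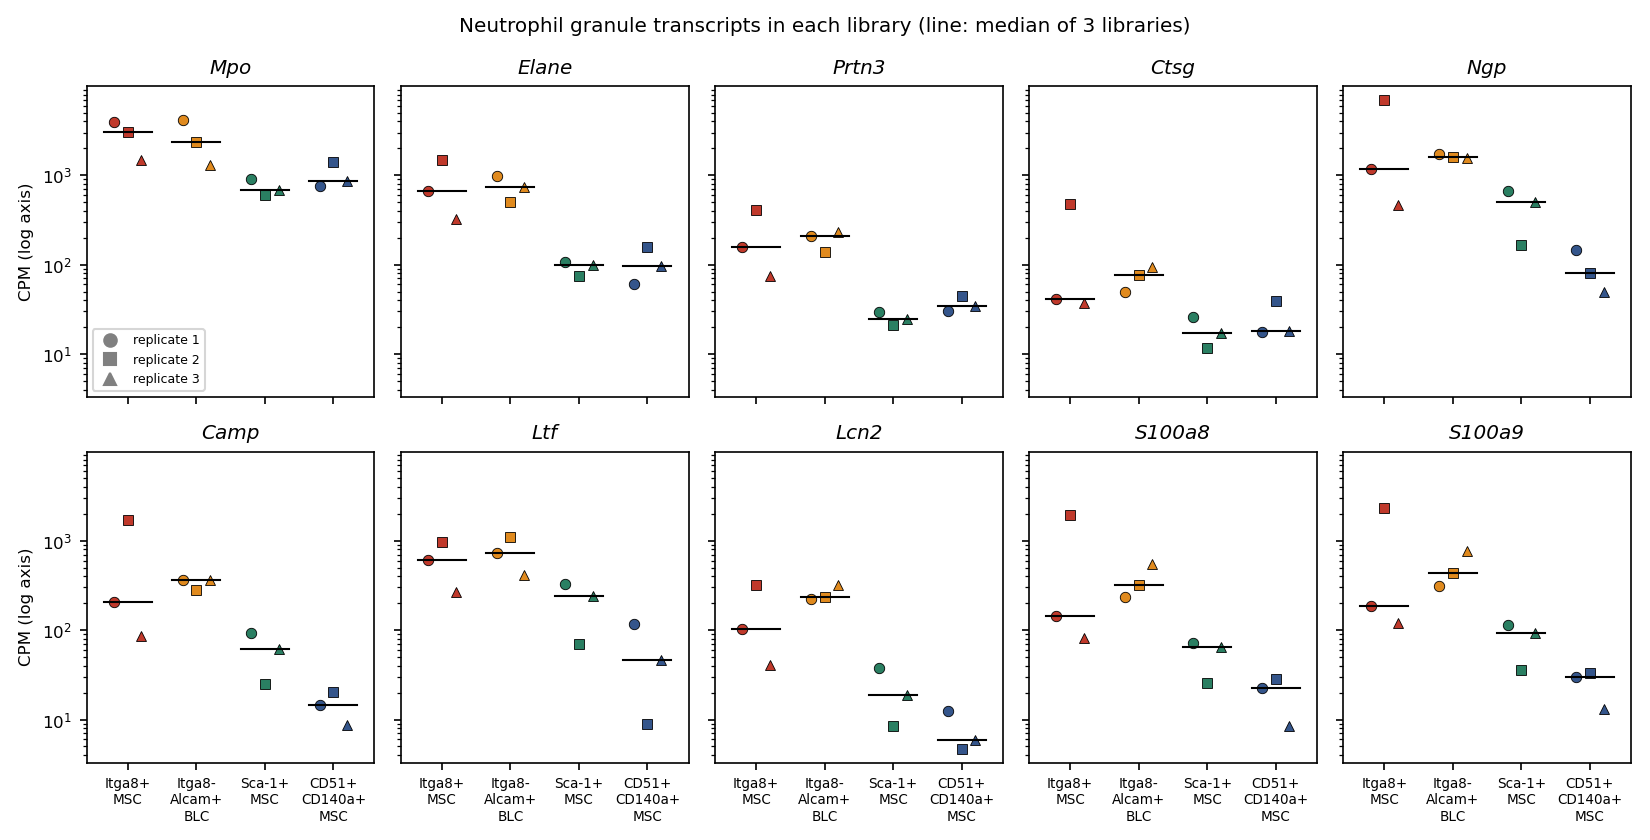
CPM of each member (log axis) in the 3 libraries of each population, with the replicate given by the shape of the point and a line at the median. The medians of all 10 members were higher in both Alcam+ populations than in the other 2, and Itga8+ replicate 2 (squares, at the left) lay above its replicates for every member except Mpo.

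A single edgeR quasi-likelihood model of the 12 libraries tested 18648 genes. Calls required more than a 2-fold difference and an FDR, the Benjamini-Hochberg adjusted p, under 0.1. The 6 comparisons share libraries, so their results are not independent of one another. Each log2 fold change below is the first population over the second with its standard error. The standard error was computed as the size of the log2 fold change over the square root of the quasi-likelihood F statistic. In bulk samples, fewer cells of a type and less RNA per cell cannot be told apart.

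Between Itga8+ MSCs and Itga8- Alcam+ BLCs, which differ by the Itga8 gate, none of the 10 members was called in either direction, against 3.82% of all genes tested. None had an unadjusted p under 0.05, the smallest p being 0.126 for Ctsg (log2 fold change 1.35 ± 0.82, edgeR), and DESeq2 and limma-trend also called 0. The median log2 fold change of the members was 0.48, against 0.08 over all genes, and it ran from -0.75 for Lcn2 to 1.35 for Ctsg. Without Itga8+ replicate 2, 7 members turned to the other sign, down to -1.71 for S100a9 and -1.69 for S100a8, and no member was called.

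Itga8+ MSCs had more of 9 of the 10 members than Sca-1+ MSCs, against 12.9% of all genes called higher in the first population, and 0 members were lower. Elane was 8.87-fold higher (log2 3.15 ± 0.54, FDR 0.00253), Prtn3 8.57-fold (3.10 ± 0.53, FDR 0.00234) and Mpo 3.87-fold (1.95 ± 0.47, FDR 0.0153). Lcn2 was 7.03-fold higher (2.81 ± 0.73, FDR 0.0229) and S100a8 13.5-fold (3.75 ± 1.05, FDR 0.0313). Ngp (FDR 0.0516) and Camp (FDR 0.02485) were called although their libraries overlapped between the populations. Ltf did not pass, at a log2 fold change of 1.53 ± 0.81 (FDR 0.209). The median over the members was 3.12, against 0.16 over all genes, and it was 1.18 without Itga8+ replicate 2.

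Only 4 of these 9 calls, Mpo, Elane, Prtn3 and Lcn2, were made under each of the 22 alternatives tried. Without Itga8+ replicate 2 these 4 were the members called, and the log2 fold change was 2.40 for Elane, 2.21 for Prtn3, 1.88 for Mpo and 1.70 for Lcn2. The members no longer called were then at 1.08 (Ctsg), 0.87 (Ngp), 1.28 (Camp), 1.05 (S100a8) and 0.89 (S100a9). Without Sca-1+ replicate 2, 5 members were called (the same 4 and Camp), and without Sca-1+ replicate 3, 7 were called. With Itga8+ replicate 2 and Itga8- Alcam+ replicate 3 both left out, 5 were called (the same 4 and Ctsg).

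Compared with CD51+CD140a+ MSCs, Itga8+ MSCs had more of all 10 members, against 21.2% of all genes called higher. The largest fitted differences were in secondary granule and calprotectin genes. Camp was 46.1-fold higher (log2 5.53 ± 1.02, FDR 0.00183), S100a8 36.4-fold (5.19 ± 1.12, FDR 0.00488), S100a9 34.7-fold (5.12 ± 1.07, FDR 0.00407) and Ngp 31.1-fold (4.96 ± 0.94, FDR 0.00214). The primary granule genes differed less, with Mpo 2.78-fold (1.48 ± 0.46, FDR 0.0310), Prtn3 5.90-fold (2.56 ± 0.51, FDR 0.00311) and Elane 7.95-fold higher (2.99 ± 0.54, FDR 0.00156). The median was 3.87 over the members and 0.18 over all genes. The difference between members was not tested.

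Of these calls, 8 were made under all 22 alternatives, and those of Mpo and Ctsg were not. Mpo was not called without Itga8+ replicate 1 or without CD51+CD140a+ replicate 1 or 3, and Ctsg was not called without Itga8+ replicate 2, where its log2 fold change was 0.67, nor with Itga8- Alcam+ replicate 3 left out as well. With Itga8+ replicate 2 left out the members had a median log2 fold change of 2.57. The value was then 3.35 for Camp, 2.53 for S100a8, 2.61 for S100a9, 3.20 for Ngp, 3.25 for Lcn2, 2.95 for Ltf, 2.29 for Elane and 1.71 for Prtn3, all of which were still called.

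Itga8- Alcam+ BLCs had more of 7 members than Sca-1+ MSCs, against 14.5% of all genes called higher, and 0 were lower. Lcn2 led at 11.8-fold (log2 3.57 ± 0.75, FDR 0.00638), followed by Elane at 7.93-fold (2.99 ± 0.54, FDR 0.00256) and Prtn3 at 7.66-fold (2.94 ± 0.52, FDR 0.00232). Ctsg (FDR 0.112), Ngp (FDR 0.127) and Ltf (FDR 0.132) did not pass, although their libraries did not overlap between the populations and DESeq2 called all 3. Again Mpo, Elane, Prtn3 and Lcn2 were called under every alternative tried. Of the libraries left out, Itga8- Alcam+ replicate 3, Sca-1+ replicate 2 and Sca-1+ replicate 3 each took the count to 4, and 9 members were called without Itga8+ replicate 2 and without Itga8+ replicate 3.

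Against CD51+CD140a+ MSCs, Itga8- Alcam+ BLCs had more of 9 members, all but Ctsg (FDR 0.177), where 20.4% of all genes were called higher. Lcn2 was 33.5-fold higher (log2 5.07 ± 0.81, FDR 0.000673), Camp 23.2-fold (4.53 ± 0.97, FDR 0.00448) and Ngp 17.6-fold (4.14 ± 0.90, FDR 0.00487), while Mpo was 2.58-fold higher (1.36 ± 0.46, FDR 0.0412). The call of Mpo was lost without Itga8- Alcam+ replicate 1, CD51+CD140a+ replicate 1 or CD51+CD140a+ replicate 3, or when scaled by library totals alone, and the other 8 were made under all alternatives tried. Ctsg was called without Itga8+ replicate 2.

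Sca-1+ MSCs and CD51+CD140a+ MSCs differed in 1 member, Ngp, which was 4.87-fold higher in Sca-1+ MSCs (log2 2.28 ± 0.83, FDR 0.0850), against 11.2% of all genes called higher. This call was lost without Itga8- Alcam+ replicate 1, Sca-1+ replicate 1 or 3, or any of the CD51+CD140a+ libraries, and 5 members were called without Itga8+ replicate 2. The 4 primary granule genes had fitted log2 fold changes of -0.54 to -0.16, and the 6 other members of 1.43 to 2.28, and apart from Ngp none of these 10 values passed the test (edgeR).

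**Figure D2:**
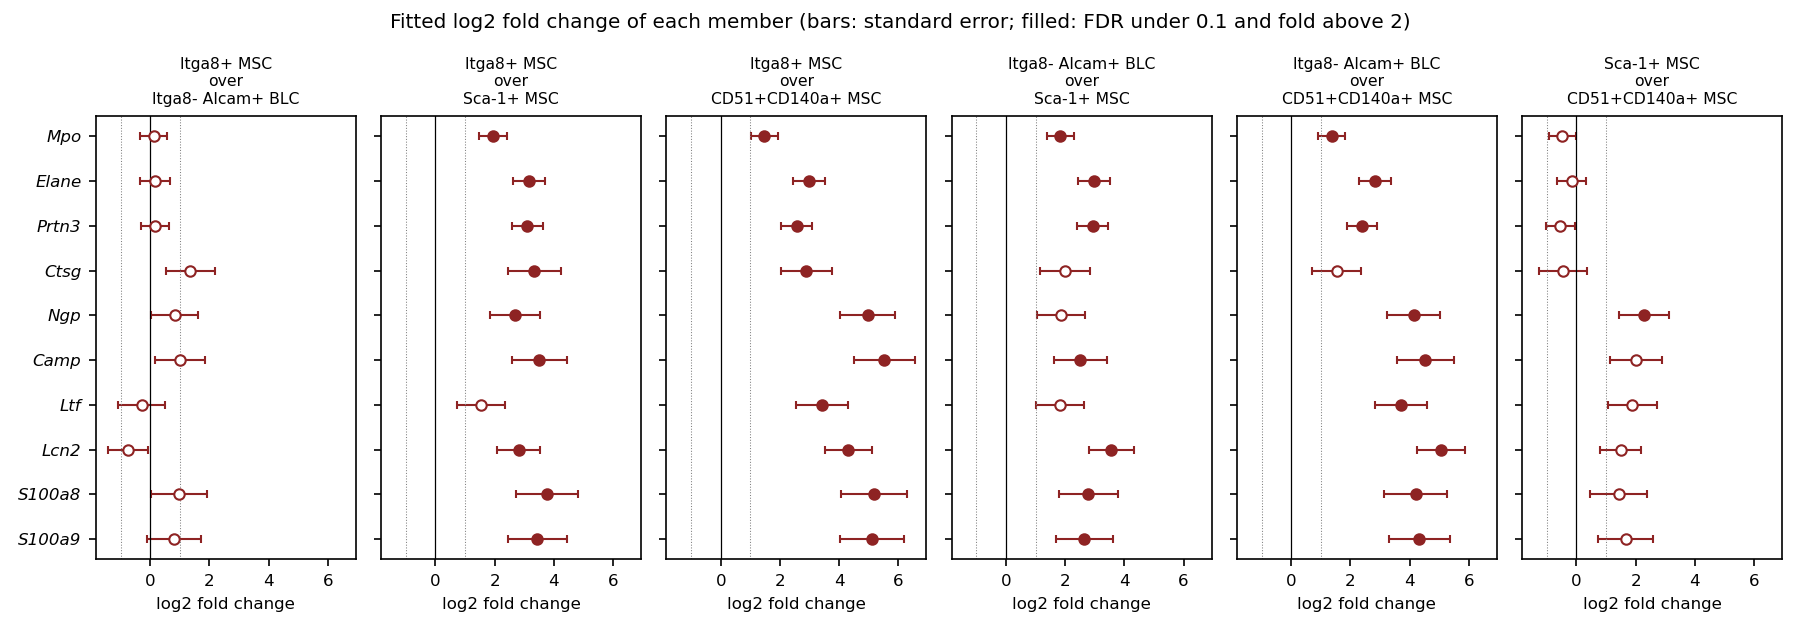
Fitted log2 fold change (x axis) of each member in the 6 comparisons, with standard errors as bars, dotted lines at a 2-fold difference, and points filled where FDR was under 0.1 and the fold above 2. No point is filled in the first panel, all 10 are in the third, and in the last the 4 primary granule genes lie left of 0 and the other 6 to the right.

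The 10 members together took 0.102% to 1.96% of a library's counts, and their summed CPM ranged from 1041 in Sca-1+ replicate 2 to 19659 in Itga8+ replicate 2. Primary granule genes made up 71.8%, 90.3% and 88.5% of the summed CPM in the 3 CD51+CD140a+ libraries, and 27.6% to 68.3% in the other 9. Secondary granule genes took 23.8%, 6.27% and 9.59% there, and 25.8% to 50.5% elsewhere. All 3 CD51+CD140a+ libraries thus lay outside the range of the others for both shares, with 1 library, replicate 1, close to its edge.

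The ratio of Mpo to Ngp showed the same split with larger numbers. It was 5.23, 17.5 and 17.5 in CD51+CD140a+ MSCs, and at most 3.64 in the other libraries, where it fell to 0.441 in Itga8+ replicate 2. Calprotectin genes took 21.9% of the summed CPM in Itga8+ replicate 2 and 20.9% in Itga8- Alcam+ replicate 3, and 1.88% to 10.7% in the other 10 libraries. These shares follow from counts per gene, not per length, and are compared here between libraries only.

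**Figure D3:**
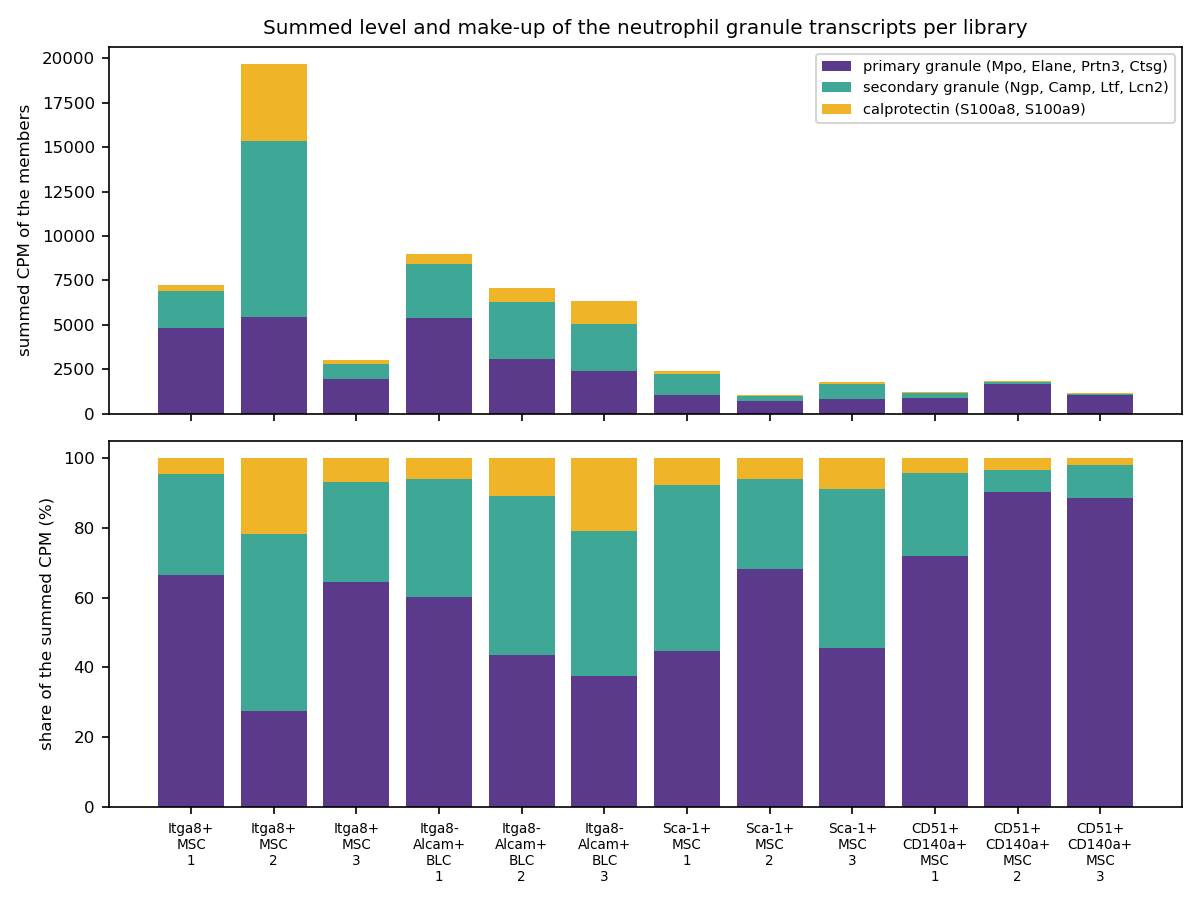
Summed CPM of the members by granule class in each library (top, bars from 0) and the share of each class in that sum (bottom, percent). Itga8+ replicate 2 has the tallest bar, at 19659 CPM, and the CD51+CD140a+ libraries have the largest primary granule shares, from 71.8% to 90.3%.

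In Itga8+ replicate 2, the ratio to the mean of the other 2 libraries of its population differed between the members. It was 17.3 for S100a8 (694 exon bases), 15.4 for S100a9 (522), 12.2 for Ctsg (1033), 11.8 for Camp (758) and 8.35 for Ngp (1222). It was 4.41 for Lcn2 (2623), 3.51 for Prtn3 (1732), 2.97 for Elane (984), 2.22 for Ltf (3450) and 1.13 for Mpo (3424). The longest members, Ltf and Mpo, had the lowest ratios, but Elane lay below the longer Prtn3 and Lcn2. In Itga8- Alcam+ replicate 3 the same ratio was 2.06 for S100a9 and 2.02 for S100a8, and 0.456 for Ltf and 0.405 for Mpo.

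Over all genes with a mean of at least 1 CPM, the median of this ratio in Itga8+ replicate 2 was 2.17 for 786 genes under 1 kb and 0.544 for 2385 genes of 8 kb or more. In Itga8- Alcam+ replicate 3 it was 1.52 and 0.637. Itga8+ replicate 3 and Itga8- Alcam+ replicate 2 ran the other way between the same 2 length classes, from 0.566 to 1.62 and from 0.639 to 1.66, each set against a mean that holds a library with shorter genes. In the Sca-1+ and CD51+CD140a+ libraries it lay between 0.899 and 1.10 in each length class. The collagen gene Col1a1 (6563 exon bases) was at 213.0 CPM in Itga8+ replicate 2 and at a mean of 6584 CPM in the other 2 Itga8+ libraries. Without Itga8- Alcam+ replicate 2, the number of members called in the 6 comparisons, in the order above, was 0, 9, 10, 7, 9 and 1. The part of this length shift in the members' values was not tested. Without both of the shortest libraries, 5 members in place of 9 were called for Itga8+ MSCs against Sca-1+ MSCs. For Itga8- Alcam+ BLCs against Sca-1+ MSCs it was 9 in place of 7.

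**Figure D4:**
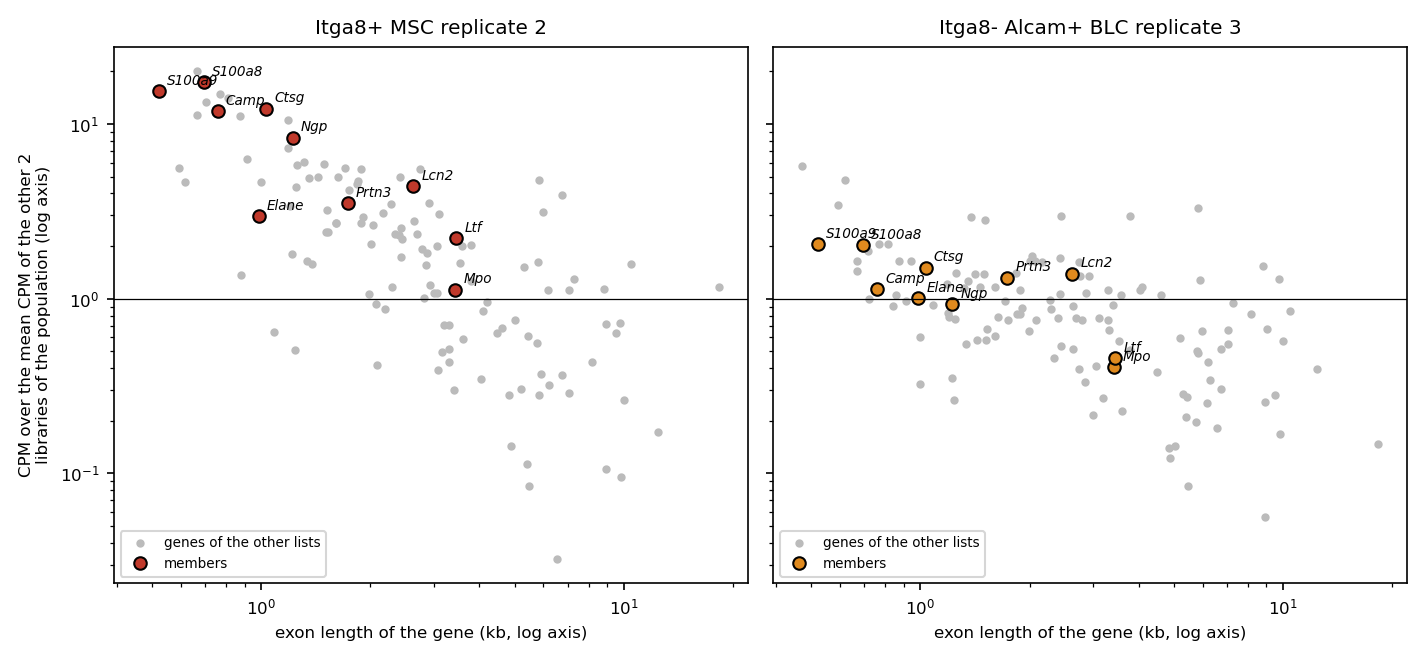
CPM in Itga8+ replicate 2 (left) and Itga8- Alcam+ replicate 3 (right) over the mean CPM of the other 2 libraries of the same population (y, log axis), against the exon length of the gene (x, kb, log axis), for the library with the shortest counted genes in each population. Members are coloured and the genes of the other lists are grey; on the left S100a8 reaches 17.3 and Mpo 1.13.

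Of 25 further neutrophil genes, 24 passed the filter. Itga8+ MSCs had more of 12 when compared with Sca-1+ MSCs (median log2 fold change 2.23), against 12.9% of all genes. They had more of 16 when compared with CD51+CD140a+ MSCs (3.04), against 21.2% of all genes. Between the Alcam+ populations 0 were called, against 3.82% of all genes in either direction. Libraries overlapped for 5 of the 12 calls and 1 of the 16. The counts were 6 (median 1.44) and 15 (median 2.46) with Itga8+ replicate 2 left out. Itga8- Alcam+ BLCs likewise had more of 12 (median 2.08) and 16 (median 2.97) than the same 2 populations, with 1 and 2 lower. Of all genes, 14.5% and 20.4% were called higher there. Chil3, a chitinase-like protein of immature neutrophils, was at 526.3, 1979 and 268.5 CPM in Itga8+ MSCs and at 40.1, 36.9 and 23.4 CPM in CD51+CD140a+ MSCs. Anxa1, which encodes annexin A1, ranged from 425.7 to 3116 CPM and was called lower in Itga8- Alcam+ BLCs against both Sca-1+ MSCs and CD51+CD140a+ MSCs. Lyz2, the lysozyme of neutrophils and macrophages, ranged from 31.5 to 2969 CPM over the 12 libraries. Ly6g, which marks maturing mouse neutrophils, reached only 8.73 CPM, in Itga8+ replicate 2, and had 0 counts in 1 Sca-1+ and 1 CD51+CD140a+ library, which allows up to the floor given above. The receptor gene Csf3r lay between 2.90 and 27.9 CPM. Hp, which encodes haptoglobin, went the other way, at 5051 to 6310 CPM in CD51+CD140a+ MSCs and at most 377.2 CPM elsewhere.

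All 14 pan-leukocyte genes had more than 3 counts in every library. Ptprc, which encodes CD45, the protein the gate removed, was at 12.7 to 17.4 CPM in Itga8+ MSCs, 3.54 to 31.6 CPM in Itga8- Alcam+ BLCs, 7.27 to 19.9 CPM in Sca-1+ MSCs and 6.94 to 11.3 CPM in CD51+CD140a+ MSCs, and it was called in no comparison. Itga8+ MSCs had more of 10 of the 14 relative to Sca-1+ MSCs (median 2.23) and of 11 relative to CD51+CD140a+ MSCs (median 2.25), Coro1a and Spi1 among both, where 12.9% and 21.2% of all genes were higher. Libraries of the 2 populations overlapped for 8 of those 10 calls and 4 of those 11, and with Itga8+ replicate 2 left out 6 (median 1.24) and 9 (median 1.56) were called. In Itga8- Alcam+ BLCs 8 and 9 were higher than in those populations, against 14.5% and 20.4% of all genes. Between the Alcam+ populations and between Sca-1+ and CD51+CD140a+ MSCs 0 were called, against 712 and 3827 of all 18648 genes tested, in either direction. Over the 12 libraries, Arhgdib ranged from 45.2 to 1052 CPM, Lcp1 from 43.3 to 233.8 CPM and Coro1a from 23.2 to 199.6 CPM. The summed CPM of the members was 3.73 to 8.38 times that of the pan-leukocyte genes, a range of 2.25 times, while the members' sum itself ranged over 18.9 times. The part of blood cells in the members' values was not tested.

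The summed CPM of erythroid genes was highest in Itga8+ replicate 2, at 3126, as was that of the members. It was 912.9 to 1430 in CD51+CD140a+ MSCs, where the members were low, and 401.0 to 601.8 in Sca-1+ MSCs. Of 14 such genes, 3 were called higher and 0 lower in Itga8+ MSCs when set against Sca-1+ MSCs (Car1, Car2 and, named after its values were seen, Epor, median log2 fold change 1.26), where 12.9% of all genes were higher and 8.89% lower, and 0 higher and 3 lower when set against CD51+CD140a+ MSCs (median -0.33), where 14.3% of all genes were lower. With Itga8+ replicate 2 left out, 1 was higher against Sca-1+ MSCs (median -0.22) and 7 were lower against CD51+CD140a+ MSCs (median -1.39). Car2 and Car1, carbonic anhydrases, ranged from 102.2 to 1013 CPM and from 30.6 to 407.0 CPM. The ratio of the members' sum to the erythroid sum ran from 0.850 in CD51+CD140a+ replicate 1 to 11.2 in Itga8- Alcam+ replicate 1. Hbb-bs, a beta-globin, was at 612.2 CPM in Itga8+ replicate 2 and at 40.0 to 161.9 CPM in the other libraries.

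Genes of eosinophils, basophils and mast cells varied between libraries of the same population. Prss34, a basophil protease, was at 0.164, 560.7 and 201.9 CPM in the 3 CD51+CD140a+ libraries, and Prg2, the eosinophil major basic protein, was at 0, 153.2 and 0 CPM in the 3 Sca-1+ libraries. Mcpt8, another basophil protease, ranged from 0.820 to 224.3 CPM. Of 9 such genes tested, 0 were called in any of the 6 comparisons by edgeR, and 0 had an unadjusted p under 0.05. Over all genes, 712 to 6631 of 18648 tested were called in either direction, depending on the comparison. Of 13 monocyte and macrophage genes tested, Itga8+ MSCs had more of 5 relative to Sca-1+ MSCs and of 6 relative to CD51+CD140a+ MSCs, against 12.9% and 21.2% of all genes. Libraries overlapped for 4 of the 5 and 3 of the 6, and with Itga8+ replicate 2 left out 1 and 3 of 12 tested were called. F13a1 ranged from 22.5 to 587.4 CPM and Ly6c2 from 10.9 to 391.6 CPM. Csf1r, the macrophage growth factor receptor, was at 5.04 to 31.9 CPM and was called in no comparison.

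The remaining lists are given by counts of genes called in Itga8+ MSCs, first against Sca-1+ MSCs, where 12.9% of all genes were higher and 8.89% lower, and then against CD51+CD140a+ MSCs, where 21.2% were higher and 14.3% lower. Of 11 B cell genes tested, 4 and 8 were higher, and Ebf1, a factor also expressed by stromal cells, was lower in both. With Itga8+ replicate 2 left out, 1 and 0 were higher. Ighm ranged from 10.9 to 110.2 CPM over the 12 libraries, Dntt from 0 to 9.61 CPM, Ebf1 from 13.4 to 512.0 CPM and Cd79a, a part of the B cell receptor, from 0.0967 to 5.92 CPM. Of 10 T and NK cell genes 3 passed the filter, Nkg7, Lck and Trac, and all 3 were higher against Sca-1+ MSCs (median log2 fold change 3.67), and Nkg7 and Trac against CD51+CD140a+ MSCs. With that library left out, 2 were higher against each. Nkg7 ranged from 6.67 to 214.1 CPM, whereas Lck reached 3.34 CPM and Trac 1.94 CPM.

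Of 8 megakaryocyte genes 3 and 1 were higher, of 8 progenitor genes 1 and 1, of 5 osteoclast genes 0 and 3 and of 8 endothelial genes 0 and 2, shares that can be read against the same 12.9% and 21.2%. These counts were 3 and 1, 1 and 1, 0 and 2, and 0 and 2 with Itga8+ replicate 2 left out. In these lists Cd34, Atp6v0d2 and Tek were lower against Sca-1+ MSCs and Cebpa, named after its values were seen, against CD51+CD140a+ MSCs. With Itga8+ replicate 2 left out, 2 osteoclast genes were lower against Sca-1+ MSCs, and the other counts of lower genes stayed the same. The highest genes were Itga2b (up to 25.8 CPM), Pf4 (11.6 CPM) and Ppbp (16.6 CPM) of the megakaryocyte list, Cd34 (1444 CPM), Irf8 (37.0 CPM) and Kit (49.0 CPM) of the progenitor list, Ctsk (802.1 CPM), Acp5 (42.9 CPM) and Atp6v0d2 (9.32 CPM) of the osteoclast list and Tek (93.3 CPM), Pecam1 (12.2 CPM) and Esam (8.47 CPM) of the endothelial list. Cdh5, the endothelial cadherin, reached 4.85 CPM.

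Lists of the stromal cells themselves had 8 genes each. Stromal genes, led by Sparc, Col1a2 and Col1a1, were higher for 1 and 4 and lower for 4 and 2. Osteoblast genes, led by Ibsp, Bglap and Bglap2, were higher for 5 and 0 and lower for 1 and 4. Tendon genes, led by Fmod, Thbs4 and Tnmd, were higher for 3 and 8, and LepR stromal genes, led by Cxcl12, Lepr and Lpl, were higher for 1 and 0 and lower for 3 and 8. Of these counts, leaving out Itga8+ replicate 2 moved by more than 1.5 times those of osteoblast genes (3 and 1 higher) and tendon genes (5 higher against Sca-1+ MSCs).

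**Figure D5:**
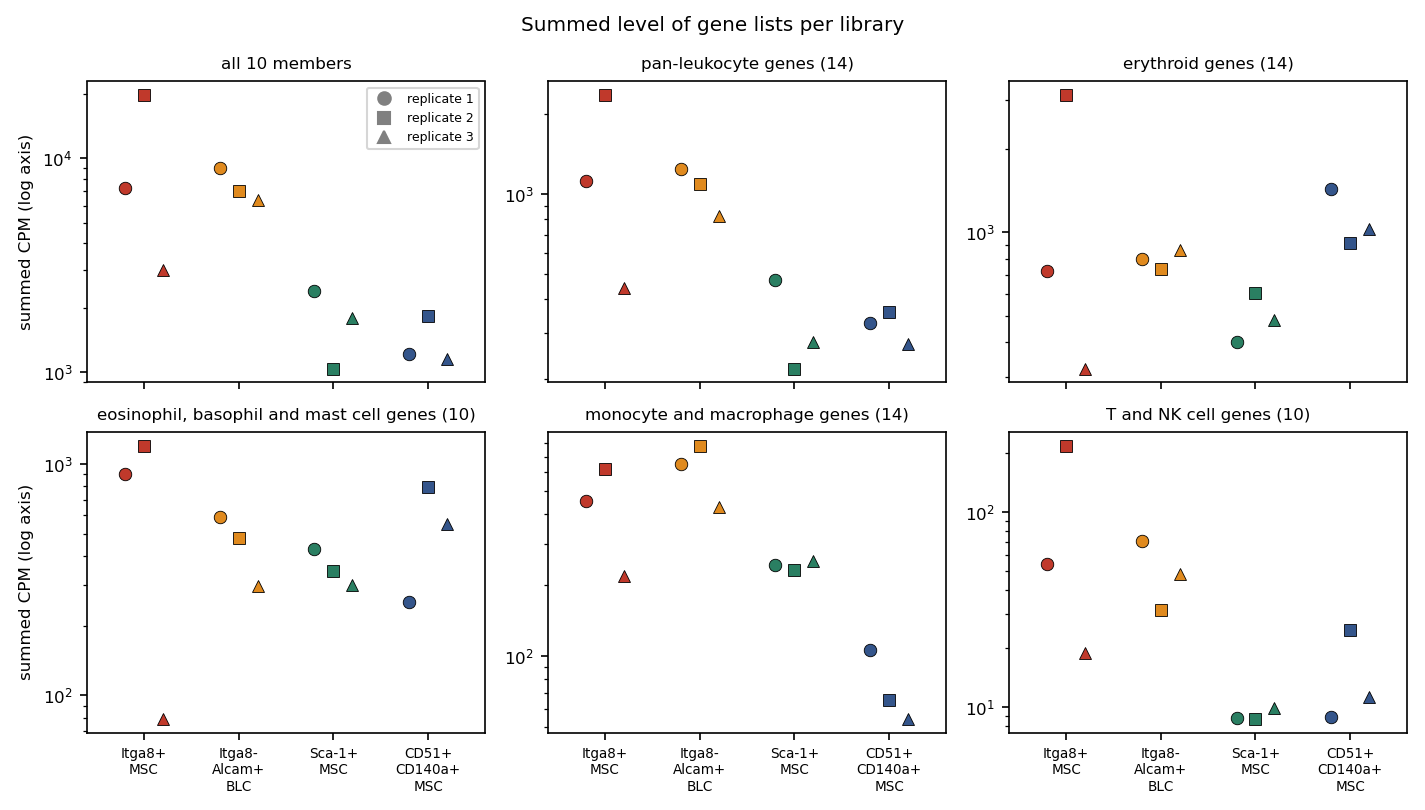
Summed CPM (log axes) of the 10 members and of 5 lists of blood cell genes in each library, by population, with the replicate given by the shape. The pan-leukocyte sum runs from 219.9 to 2346 CPM, and the erythroid sum is higher in CD51+CD140a+ MSCs than in Sca-1+ MSCs.

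Among 14359 genes with a mean of at least 1 CPM, likeness was measured as Pearson's r over the 12 libraries between log2(CPM + 0.5) of a gene and the mean of the 10 members, as a description, since libraries share their population and their length shift. The 10 genes with the highest r, outside the members, were Pglyrp1 (0.985), Ly6g (0.985), Alox5ap (0.983), Spi1 (0.981), Krt83 (0.981), Chil3 (0.978), Napsa (0.977), Rsph3a (0.974), Wfdc21 (0.974) and I830127L07Rik (0.972). Pglyrp1 encodes an antibacterial granule protein, Alox5ap a protein needed for leukotriene synthesis and Spi1 the factor PU.1. Mean Pglyrp1 was 31.1 ± 29.4, 32.0 ± 6.69, 5.24 ± 2.92 and 2.85 ± 1.14 CPM (SD, n = 3) in the Itga8+, Itga8- Alcam+, Sca-1+ and CD51+CD140a+ populations. Of the members themselves, each of which is part of that mean and so raises its own r, Camp was closest (0.989), Ltf was at 0.851 and Mpo farthest (0.778). Pairs of members had r between 0.543 (Ltf and Ctsg) and 0.998.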

How the data were processed

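RNA of 12 libraries (4 populations, 3 each) was amplified with SMART-Seq v4, made into libraries with Nextera XT and sequenced on a NextSeq 500. The authors deposited raw counts per Ensembl gene. The submitters' processing notes name FastQC 0.11.7, Trimmomatic 0.38, HISAT2 2.1.0, SAMtools 1.9, featureCounts 1.6.3 and mm10, whereas the study's methods name TopHat and Bowtie2; the strand setting and annotation release are not given in the sources used here.

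Symbols, lengths and positions came from GENCODE M21 (GRCm38). The 10 members and all gene lists were chosen with earlier results of these data known. Counts were fitted with edgeR 4.0.16 (limma 3.58.1, R 4.3.3): TMM scaling, glmQLFit and glmQLFTest, two-sided, 12 libraries in 1 fit, on genes that reached 0.5 CPM in any library. All 10 members passed. DESeq2 1.42.0, limma-trend, other scalings, filters and thresholds, a replicate block and leaving out each library were alternatives. The fits were tested on simulated data. TPM used exon lengths, and figures used Python 3.11.15 and matplotlib 3.10.9.

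The text names all members, the 3 genes with the highest mean CPM of each further list, a few fixed markers and the 10 genes most like the members. Totals of 17580677 to 31332475 counts put 3 counts at 0.0820 to 0.180 CPM. The sources used here do not say whether replicate numbers pair the samples, and the main fit did not pair them.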

Additional observations from a re-analysis of the deposited data

How the results depend on the processing

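Over 22 alternatives the number of members called stayed at 0 between Itga8+ MSCs and Itga8- Alcam+ BLCs and within 1.5 times the main number in both comparisons of an Alcam+ population with CD51+CD140a+ MSCs. With the replicate block, 4 members were called for Itga8+ MSCs against Sca-1+ MSCs in place of 9. The median log2 fold change of the members was then 2.78, against 3.12 in the main fit. The sources used here do not say whether replicate numbers pair the samples. No comparison had all 3 same-number correlations over 0.1 (lowest -0.612, highest 0.225), and in none did every library correlate best with its own number. Between Itga8- Alcam+ BLCs and Sca-1+ MSCs, 3 of 3 libraries of the first and 2 of 3 of the second did so, at correlations of 0.047 to 0.173. Correlations between so few libraries cannot decide whether samples were paired, and the main fit used no pairing. With Itga8+ replicate 2 and Itga8- Alcam+ replicate 3 left out together, an alternative chosen after seeing the data, the number called was 5 for Itga8+ MSCs against Sca-1+ MSCs and 5 for Sca-1+ MSCs against CD51+CD140a+ MSCs. At an FDR under 0.05 it was 4 for Itga8- Alcam+ BLCs against Sca-1+ MSCs, while it was 0 for Sca-1+ MSCs against CD51+CD140a+ MSCs. In this last comparison it was 3 with DESeq2, 2 with limma-trend, 0 with library totals alone and 5 with only the populations compared in the fit. Leaving out 1 library at a time gave 4 to 9 members for Itga8+ MSCs against Sca-1+ MSCs, 9 to 10 against CD51+CD140a+ MSCs, 4 to 9 for Itga8- Alcam+ BLCs against Sca-1+ MSCs, 8 to 10 against CD51+CD140a+ MSCs and 0 to 5 for Sca-1+ against CD51+CD140a+ MSCs. Of the 10 genes most like the members, 5 were shared when deviations from population means were used, also chosen after seeing the data, and 4 to 9 when 1 library was left out. Of the log2 fold changes of single members under the 21 alternatives other than the stricter FDR, 1138 kept their direction and call, 39 became called, 52 lost their call and 31 changed sign, none of them called. At an FDR under 0.05, 5 further calls were lost. The cause was not tested. Leaving Itga8+ replicate 2 out of the counts over the other gene lists was also chosen after seeing the data.

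Between Itga8+ MSCs and Itga8- Alcam+ BLCs, the log2 fold changes that changed sign were, without Itga8+ replicate 2, Elane -0.54, Prtn3 -0.69, Ctsg -0.87, Ngp -0.94, Camp -1.19, S100a8 -1.69 and S100a9 -1.71. With both libraries out they were Mpo -0.24, Elane -0.53, Prtn3 -0.54, Ctsg -0.64, Ngp -0.97, Camp -1.11, S100a8 -1.26 and S100a9 -1.27. With limma-trend they were Elane -0.0514, Prtn3 -0.15, Ngp -0.0455, Camp -0.10, S100a8 -0.28 and S100a9 -0.35, and with the replicate block Elane -0.00395 and Prtn3 -0.0128. Mpo was at -0.20 without Itga8+ replicate 1 and without Itga8- Alcam+ replicate 3. Without Itga8- Alcam+ replicate 2, Elane was at -0.06, Prtn3 at -0.03 and Ltf at 0.0932, and Ltf was at 0.06 without Itga8+ replicate 3. For Sca-1+ MSCs over CD51+CD140a+ MSCs, Elane was at 0.249 and Ctsg at 0.0391 without CD51+CD140a+ replicate 2. With 1 library left out at a time, the other end of the range in the first comparison was Mpo 0.63, Elane 0.53, Prtn3 0.56, Ctsg 1.82, Ngp 1.30, Camp 1.49, Ltf -0.76, S100a8 1.48 and S100a9 1.29, and in the last Elane -0.43 and Ctsg -0.79.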
